A study of Mus musculus with 12 samples.

Results

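DNA repair and checkpoint genes were examined in RNA sequencing libraries from 7 mouse tumors and 5 normal mouse lungs. The set was given as 44 gene symbols covering homologous recombination, the Fanconi anemia pathway, break sensing, checkpoint kinases, the PARP enzymes, end joining by polymerase theta and mismatch recognition. Of these, 42 were found by symbol among the 30399 genes of the table. Fanca and Wee1 were not analysed here. The genes were listed by their function in repair and not by a cut on measured values, although earlier results of these data were known.

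The tumors came from a study that makes mouse lung cancer models by CRISPR/Cas9 mutagenesis without a viral vector, and from what is known of that study the edited genes are Rb1, Rbl1 and Trp53. The labels give tissue alone: normal lung or tumor. They give no strain, age, sex, treatment, time or edited gene for any sample, and name nothing that both groups share beyond species and RNA preparation. The titles carry a number, 159 for tumors 3 and 4 and 201 for tumors 5, 6 and 7, so the 7 tumors hold 4 distinct numbers, and the titles of tumors 1 and 7 include a word for trachea. The mean log2 level of 4 Y-linked genes was 9.18 to 9.43 for normal lungs 1, 2, 4 and 5 and 9.14 for tumor 1, and at most 1.48 in normal lung 3 and the other 6 tumors. Y-linked expression was therefore unevenly spread over the groups, and a fit with it as a covariate called 11632 genes in place of 14554. The titles of tumors 3 and 4 differ only in a letter, D or I, after a word for lung, and those of tumors 5 and 6 also hold that word. The labels do not say whether samples came from separate animals, so p-values measure the spread between these samples. The main fit took the 7 tumors as independent. With tumors of the same title number treated as correlated (consensus correlation 0.30), 34 members were called higher and 1 lower, the same counts as in the main fit.

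Homologous recombination repairs a broken chromosome by copying the intact sister: BRCA1 with BARD1 promotes resection of the break, PALB2 links BRCA1 to BRCA2, and BRCA2 acts at the exposed strand before it pairs with the sister. The Fanconi pathway handles crosslinks between the strands, where a core complex carrying the ubiquitin ligase FANCL and its partner enzyme UBE2T modifies the FANCD2-FANCI pair. ATR with CHEK1, and ATM with CHEK2, are the kinases that halt the cell cycle while damage is repaired. Many of these genes are known to be transcribed mainly in S and G2 phase, and most cells of adult lung are not dividing.

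All values are normalized read counts. Depth was 11126432 to 17032234 whole reads for the normal lungs and 13093843 to 24217633 for the tumors. The worth of 3 reads was at most 4.85 (normal lungs) and 3.57 (tumors) on the normalized scale. Every member lay above this floor in every sample, the lowest being Xrcc3 at 5.64 in normal lung 4, and these floors cover counting error only. The tissue labels matched the markers: all 12 neuroendocrine markers were higher in tumors (median log2 fold change 7.63), while all 12 lung epithelial (-8.18), 10 endothelial (-4.78) and 10 leukocyte (-4.54) markers were lower. All 16 proliferation markers were higher (median 4.03), with a summed normalized count of 2204 to 4306 in normal lung and 29295 to 64854 in tumors. Between normal lung and tumors the summed counts went from 295.7 to 563 up to 42207 to 152508 for neuroendocrine markers, and from 85999 to 166690 down to 389.6 to 14662 for leukocyte markers. They went from 307110 to 539786 down to 1495 to 4776 for lung epithelium, and from 80251 to 99588 down to 2987 to 8693 for endothelium. No marker was at 0 in every sample of a group. In bulk samples, fewer cells of a type and less RNA per cell cannot be told apart, and the part of proliferation or of cell makeup in the results below was not tested. Rb1 was higher in tumors (139.6 ± 22.6, SD, n = 5, against 379 ± 61.0, n = 7, limma adjusted p = 1.28e-05), Rbl1 was higher (383 ± 48.0 against 1234 ± 353, adjusted p = 2.92e-05) and Trp53 did not pass (885 ± 150.2 against 1175 ± 322, adjusted p = 0.106). Such counts do not show whether a gene was edited.

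Most of the repair and checkpoint genes were higher in tumors than in normal lung. Of the 42 members, 34 (81.0%) rose, 1 (2.38%) fell and 7 did not pass, with limma at a Benjamini-Hochberg adjusted p under 0.05 over 23674 tested genes. Among all tested genes 61.5% were called, 31.4% higher and 30.1% lower. The median log2 fold change was 1.93 for the members (a fold of 3.80) and 0.04 for all tested genes. With the further demand of a 2-fold rise (1 log2 unit), 28 members (66.7%) were called higher, against 24% of all tested genes. The 6 called members under that size were Xrcc2, Atrip, Fancc, Atr, Wrn and Parp1. In 31 members (73.8%) every tumor lay above every normal lung, against 20.1% of all tested genes, and in 1 member, Rad50, every tumor lay below, against 18.4%. The change reached 4-fold in 19 members, 8-fold in 14 and 16-fold in 7. Those 7 were Polq, Exo1, Rad51ap1, Rad54b, Brca1, Fanci and Chek1. The shares of all tested genes that reached 4-fold, 8-fold or 16-fold were not taken.

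**Figure D1:**
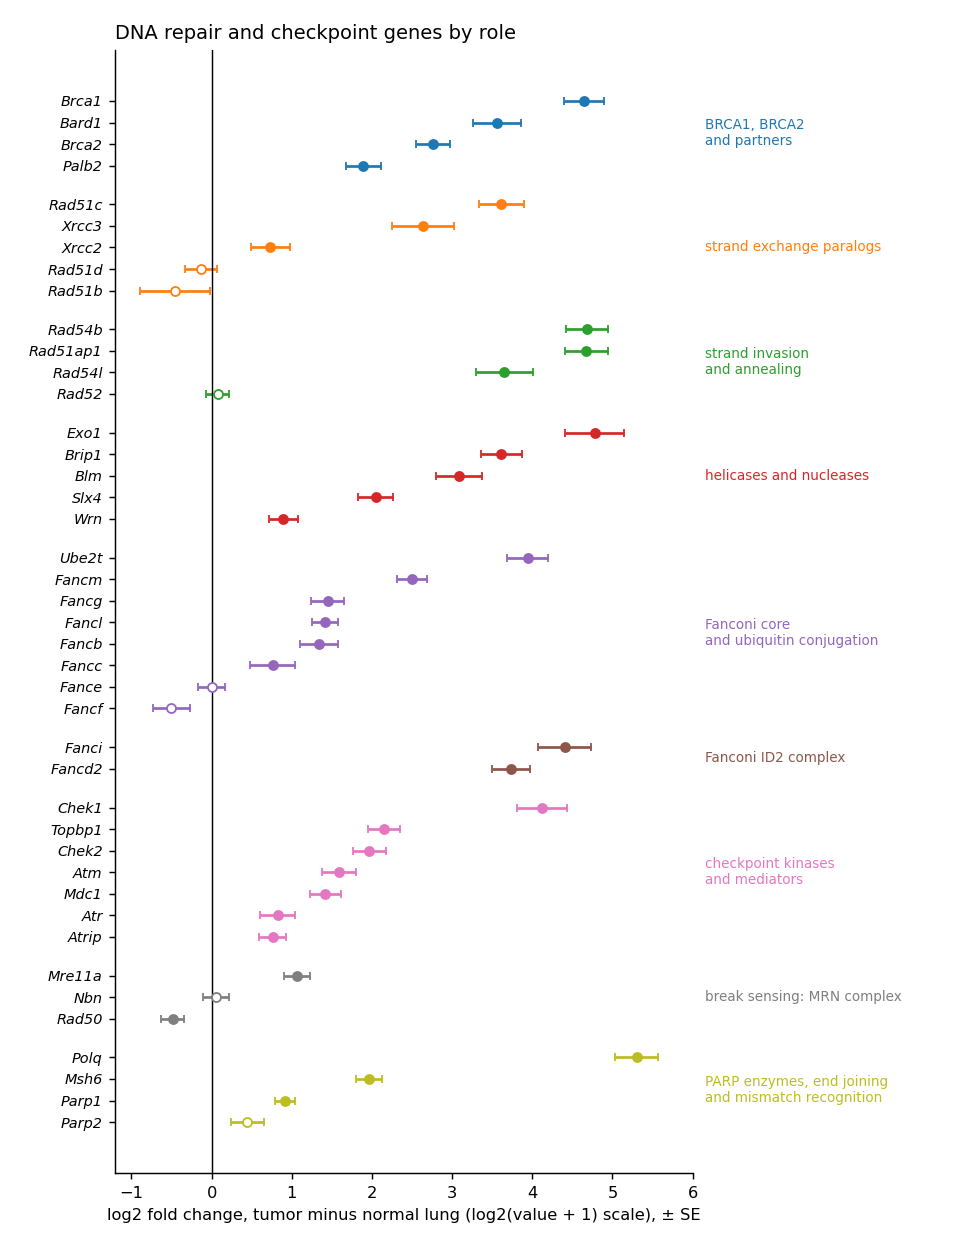
Log2 fold change (tumor minus normal lung, on log2(normalized count + 1)) with its standard error for the 42 members, grouped by role; filled symbols passed limma at an adjusted p under 0.05 and open symbols did not. Polq stands highest at 5.30, and Rad50 at -0.49 is the only member called lower.

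The promoters of 6 members are shown because they span the range of changes and hold examples of each type of sequence word searched for, though not of every word. E2F, CHR and NF-Y sites are known from the promoters of genes transcribed in dividing cells. Each is the 250 bases before the annotated start, from the RefSeq table of assembly GRCm38.p6, a different build from the GRCm39 that the submitters' notes name, and is written 5′ to 3′ on the gene's strand with matches on either strand in capitals. The words were TTTCCCGC, TTTCGCGC, TTTGGCGC and TTTCCCGG for an E2F-type site, TTTGAA and TTCGAA for a CHR-type site, and CCAAT for NF-Y, with reverse complements included. No word of a type contains a word of another type.
Bard1 (chr1:71102973-71103222, minus strand): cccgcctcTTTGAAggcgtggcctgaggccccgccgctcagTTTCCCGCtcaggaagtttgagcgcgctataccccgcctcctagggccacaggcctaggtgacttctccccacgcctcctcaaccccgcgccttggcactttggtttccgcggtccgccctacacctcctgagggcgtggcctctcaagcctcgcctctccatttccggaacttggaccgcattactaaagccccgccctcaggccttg
Brca2 (chr5:150522371-150522620, plus strand): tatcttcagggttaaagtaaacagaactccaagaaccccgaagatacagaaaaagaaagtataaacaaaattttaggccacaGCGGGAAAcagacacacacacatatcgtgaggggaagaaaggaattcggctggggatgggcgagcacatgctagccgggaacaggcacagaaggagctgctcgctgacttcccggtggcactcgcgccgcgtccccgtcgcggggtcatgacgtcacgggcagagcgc
Brca1 (chr11:101551956-101552205, minus strand): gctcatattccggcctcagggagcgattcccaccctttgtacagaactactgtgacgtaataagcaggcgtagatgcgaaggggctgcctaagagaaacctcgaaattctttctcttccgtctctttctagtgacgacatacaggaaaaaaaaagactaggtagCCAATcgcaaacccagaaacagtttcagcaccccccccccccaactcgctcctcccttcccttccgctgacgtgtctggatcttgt
Polq (chr16:37011536-37011785, plus strand): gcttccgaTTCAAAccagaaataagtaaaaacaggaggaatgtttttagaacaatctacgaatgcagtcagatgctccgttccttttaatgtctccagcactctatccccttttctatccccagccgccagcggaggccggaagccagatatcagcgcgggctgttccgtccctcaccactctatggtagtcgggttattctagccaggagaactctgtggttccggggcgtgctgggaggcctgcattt
Ube2t (chr1:134962315-134962564, plus strand): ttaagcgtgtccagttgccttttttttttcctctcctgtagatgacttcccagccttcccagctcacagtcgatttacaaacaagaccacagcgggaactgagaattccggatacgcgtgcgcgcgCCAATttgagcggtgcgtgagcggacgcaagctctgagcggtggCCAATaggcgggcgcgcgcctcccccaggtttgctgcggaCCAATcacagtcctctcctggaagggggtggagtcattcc
Fancf (chr7:51862268-51862517, minus strand): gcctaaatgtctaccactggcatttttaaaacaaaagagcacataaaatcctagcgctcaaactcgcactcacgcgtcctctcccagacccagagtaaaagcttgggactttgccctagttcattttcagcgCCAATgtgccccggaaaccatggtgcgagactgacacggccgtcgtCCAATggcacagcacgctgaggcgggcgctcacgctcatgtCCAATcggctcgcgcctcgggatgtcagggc

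Bard1 holds an E2F-type word 209 bases and a CHR-type word 242 bases before the start, and Brca2 an E2F-type word at 168. Polq, the member with the largest rise, holds only a CHR-type word at 242, and Brca1 a single CCAAT at 86. Ube2t holds CCAAT at 124, 80 and 40 bases before its start. Fancf, which did not pass the test, holds the same word at 118, 72 and 31. A promoter was in the table for 34 of the 42 members, 3 of them with 2 annotated starts. An E2F-type word occurred in 6 of the 34 (17.6%), namely Brca2, Bard1, Fancg, Chek2, Topbp1 and Mdc1, against 2.89% of 27025 genes in the table. Split by log2 fold change, it occurred in 1 of 11 members at 3 or more, in 5 of 14 from 1 to under 3 and in 0 of 9 under 1. This split was not planned. CCAAT occurred in 58.8% of the members against 37.5% of all genes, and the CHR-type words in 8.82% against 19.6%. These shares were not adjusted for base composition, which differs between the words, and its part in them was not tested. A match is a description of letters, not a bound site, and a window without one says only that these words are not in it.

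All 4 genes of the BRCA1 and BRCA2 group were higher, each with no overlap between normal lung and tumors. For this and the following role groups, the shares over all tested genes are 31.4% higher and 30.1% lower. In 20.1% of all tested genes every tumor lay above every normal lung. Brca1 (ENSMUSG00000017146) had normalized counts of 54.2, 43.0, 69.4, 42.3 and 65.5 across normal lungs 1 to 5. The tumors had a lowest value of 778, a median of 1577 and a highest of 2177. Tumor 7 was the lowest tumor and still lay far above every normal lung. The means were 54.9 ± 12.5 (SD, n = 5) and 1432 ± 465 (n = 7), which differed by 4.64 log2 units (SE 0.25, limma adjusted p = 5.74e-09). Bard1 (ENSMUSG00000026196), the partner that forms the ubiquitin ligase with Brca1, had 70.9, 64.5, 92.1, 42.3 and 51.7 in normal lung and 484, 724 and 1615 as lowest, median and highest in tumors. Its highest value was in tumor 5, where Brca1 was 1600.0, while the Brca1 peak was in tumor 3. Bard1 rose by 3.56 log2 units (SE 0.30, limma adjusted p = 3.56e-07). Brca2 (ENSMUSG00000041147), the partner of Palb2, went from 155, 158, 128, 98.7 and 117.3 to 503, 893 and 1153 (log2 fold change 2.76, SE 0.21, limma adjusted p = 1.5e-07), with tumor 7 lowest and the next tumor at 821. Palb2 (ENSMUSG00000044702), the bridge between Brca1 and Brca2, changed least of the group, from a mean of 73.0 ± 14.0 to 276 ± 61.4 (log2 fold change 1.89, SE 0.22, limma adjusted p = 6.78e-06).

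The 5 paralogs Rad51b, Rad51c, Rad51d, Xrcc2 and Xrcc3, which assist strand exchange, did not move as a block: 3 were higher and 2 did not pass. Among all tested genes 31.4% were higher. Rad51c (ENSMUSG00000007646) had 40.0, 54.8, 58.1, 35.3 and 29.9 in normal lung and 305, 521 and 853 in tumors, with no overlap (log2 fold change 3.61, SE 0.28, limma adjusted p = 1.56e-07). Xrcc3 (ENSMUSG00000021287), which pairs with Rad51c, rose from 21.8 ± 9.44 to 129 ± 33.8 (log2 fold change 2.64, SE 0.38, adjusted p = 5.45e-05). Xrcc2 (ENSMUSG00000028933) was near 138 in normal lung (129 to 153) and spread from 139 to 385 in tumors, so that tumor 7 at 139 lay within the normal range. The change in Xrcc2 was 0.73 log2 units (SE 0.24, limma adjusted p = 0.0187), and with Y-linked expression as a covariate it was also 0.73 but did not pass (adjusted p = 0.0885). Rad51d (ENSMUSG00000018841), the direct partner of Xrcc2, had 410.1, 346, 296, 279 and 340.3 in normal lung and 197, 306 and 451 in tumors. Its groups overlapped and it did not pass (log2 fold change -0.13, SE 0.20, adjusted p = 0.591).

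Rad51b (ENSMUSG00000059060) was the most variable member among the tumors. The normal lungs held 672, 559, 523, 449 and 852, and tumors 1 to 7 held 329.8, 136, 276, 436, 565, 731 and 1298. The 3 tumors numbered 201 lay between 565 and 1298, and the other 4 lay between 136 and 436, all under the lowest normal lung. The SD over tumors on the log2 scale was 1.05, against 0.36 over normal lungs. Over all 7 tumors Rad51b did not pass (log2 fold change -0.46, SE 0.44, limma adjusted p = 0.381). Without the tumors numbered 201, which hold its 3 highest tumor values, the log2 fold change was -1.13; this split was chosen after the values were seen and is given as a description. Whether tumors that share a number share an animal is not said by the labels, and the part of that number in the pattern was not tested.

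Among the genes that act in strand invasion and annealing, 3 of 4 were higher. Rad54b (ENSMUSG00000078773), a DNA translocase, had 19.3, 12.9, 25.8, 12.7 and 18.4 in normal lung and 274, 487 and 617 in tumors (log2 fold change 4.68, SE 0.26, limma adjusted p = 8.88e-09). Rad51ap1 (ENSMUSG00000030346), which stimulates strand invasion, went from 32.1 ± 10.6 to 849.7 ± 256, also by 4.68 log2 units (SE 0.27, adjusted p = 1.08e-08). Rad54l (ENSMUSG00000028702), the relative of Rad54b, rose by 3.65 log2 units (SE 0.35, adjusted p = 1.18e-06). The tumors lay above the normal lungs without overlap in all 3. Rad52 (ENSMUSG00000030166), a strand annealing factor, had 281, 272, 313, 269 and 278 in normal lung and 247, 309 and 326 in tumors. The groups of Rad52 overlapped and it did not pass (log2 fold change 0.07, SE 0.14, adjusted p = 0.664), with an SD of 0.14 on the log2 scale over tumors.

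All 5 helicases and nucleases were higher, each without overlap (all tested genes: 31.4% higher, 20.1% with every tumor above every normal lung). Exo1 (ENSMUSG00000039748), a nuclease that lengthens resected ends and also acts in mismatch repair, had 33.5, 19.4, 42.0, 14.1 and 27.6 in normal lung and 304, 718 and 1401 in tumors (log2 fold change 4.78, SE 0.37, limma adjusted p = 1.58e-07). After Rad51b it varied most among tumors, with an SD of 0.73 on the log2 scale. Brip1 (ENSMUSG00000034329), the helicase that binds BRCA1, rose by 3.61 log2 units (SE 0.26, adjusted p = 6.47e-08), and Blm (ENSMUSG00000030528), the Bloom syndrome helicase, by 3.08 log2 units (SE 0.29, adjusted p = 8.27e-07). Slx4 (ENSMUSG00000039738), a scaffold for structure-cutting nucleases, went from 423 ± 68.1 to 1798 ± 566 (log2 fold change 2.04, SE 0.21, adjusted p = 2.6e-06). Wrn (ENSMUSG00000031583), the Werner syndrome helicase, changed least: 498, 545, 457, 450.0 and 501 in normal lung against 554, 951 and 1283 in tumors. Its lowest tumor, tumor 2, lay just above the highest normal lung (log2 fold change 0.89, SE 0.18, limma adjusted p = 0.000852).

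**Figure D2:**
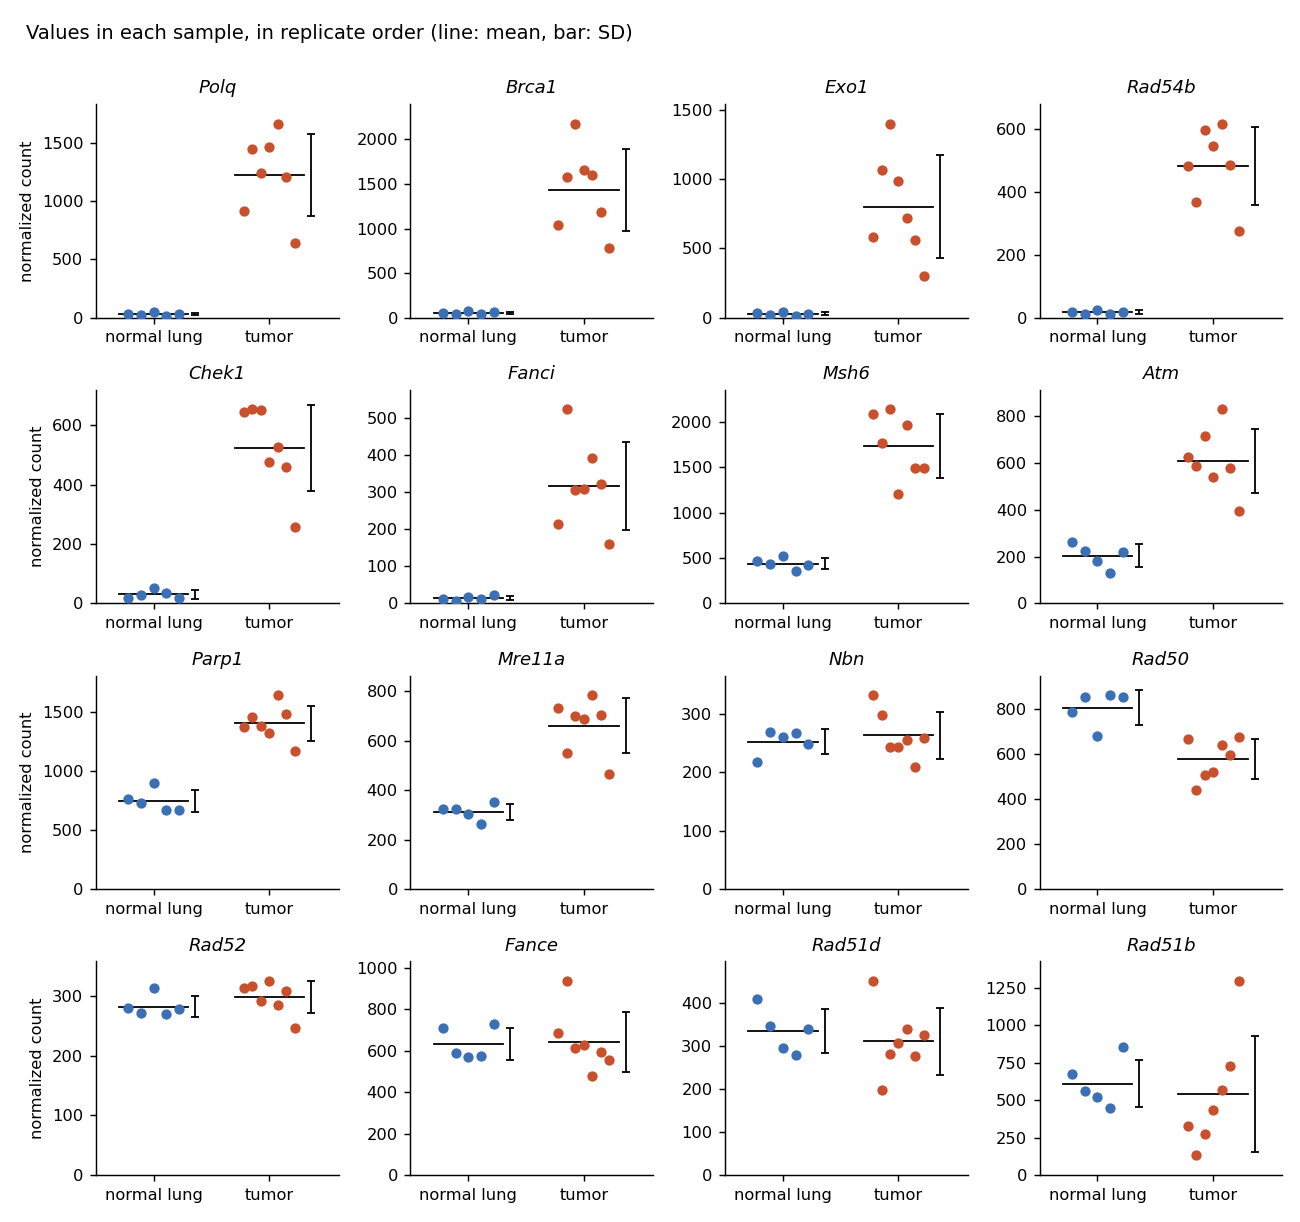
Normalized counts of 16 members in each of the 5 normal lungs and 7 tumors, in replicate order on linear axes from 0 with a scale for each gene; lines are group means and bars 1 SD. Polq, Brca1, Exo1, Rad54b, Chek1 and Fanci are separated by a wide gap, Rad50 lies lower in all tumors, and Rad51b spreads from 136 to 1298 among tumors.

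In the Fanconi pathway the FANCD2-FANCI pair and the ubiquitin-conjugating step rose most, and the core complex subunits were mixed. Fancd2 (ENSMUSG00000034023) had 34.8, 25.8, 43.6, 28.2 and 29.9 in normal lung and 277, 428 and 636 in tumors (log2 fold change 3.73, SE 0.24, limma adjusted p = 2.61e-08). Fanci (ENSMUSG00000039187) had the lowest normal mean of all members, 13.9 ± 5.4, and reached 318 ± 118 in tumors (log2 fold change 4.40, SE 0.33, adjusted p = 1.09e-07). Both genes were separated without overlap. Ube2t (ENSMUSG00000026429), the ubiquitin-conjugating enzyme, went from 47.6 ± 5.81 to 783 ± 261 (log2 fold change 3.94, SE 0.25, adjusted p = 2.62e-08). Fancm (ENSMUSG00000055884), the translocase that brings the core complex to DNA, rose by 2.50 log2 units (SE 0.19, adjusted p = 1.18e-07).

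Of the 6 other core subunits, 4 were higher by at most 1.45 on the log2 scale and 2 did not pass. In log2 units Fancg rose by 1.45 (SE 0.21, limma adjusted p = 4.49e-05), Fancl, the ubiquitin ligase, by 1.41 (SE 0.16, adjusted p = 6.14e-06), and Fancb by 1.34 (SE 0.24, adjusted p = 0.000286), each without overlap. Fancc overlapped between groups (141 to 329 in normal lung, 188 to 534 in tumors) and its call was the least firm among the members called higher (log2 fold change 0.76, SE 0.28, adjusted p = 0.0313). It no longer passed when any of normal lungs 2, 3 or 4 or tumors 2, 3 or 4 was left out (log2 fold change 0.64 to 0.72), or with Y-linked expression as a covariate (log2 fold change 0.94, adjusted p = 0.0572). Fance (ENSMUSG00000007570), which binds FANCD2, had 709, 588, 570.1, 576 and 730.0 in normal lung and 480.5, 616 and 939 in tumors, and did not pass (log2 fold change -0.00, SE 0.17, adjusted p = 0.999). Fancf (ENSMUSG00000092118), an adaptor of the core complex, had 92.9, 120.4, 115, 145 and 101 in normal lung and 57.6, 74.3 and 104 in tumors. The groups of Fancf overlapped and it did not pass with limma (log2 fold change -0.50, SE 0.23, adjusted p = 0.0678), while DESeq2 on whole reads gave -0.50 with an adjusted p of 0.02625.

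The exons of 11 members overlap those of another measured gene on the opposite strand in the GENCODE M21 annotation. Whether counting used the strand is not given in the sources used here. The overlap covers 16.0% of the exon bases of Fanci, 15.4% of Rad54l, 15.0% of Fancf and 13.7% of Fancl, and less than 10% in the other 7. These are shares of exon bases, not of reads, and how far the counts of these genes are affected was not measured.

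All 7 checkpoint genes were higher (31.4% of all tested genes were), and the spread of sizes within the group was wide. Chek1 (ENSMUSG00000032113), the effector kinase of ATR, had 18.1, 28.0, 53.3, 33.9 and 18.4 in normal lung and 257, 527 and 654 in tumors (log2 fold change 4.12, SE 0.31, limma adjusted p = 1.24e-07). Atr (ENSMUSG00000032409) itself went from 164 ± 40.0 to 289.8 ± 59.5 with overlapping groups (log2 fold change 0.82, SE 0.22, adjusted p = 0.00516), and its binding partner Atrip (ENSMUSG00000025646) from 368 ± 33.9 to 636 ± 131 without overlap (log2 fold change 0.76, SE 0.17, adjusted p = 0.0015). Topbp1 (ENSMUSG00000032555), the activator of ATR, changed more than either, from 467 ± 81.5 to 2111 ± 531 (log2 fold change 2.15, SE 0.20, adjusted p = 1.04e-06). On the other kinase branch, Chek2 (ENSMUSG00000029521) rose by 1.97 log2 units (SE 0.21, adjusted p = 2.6e-06) and Atm (ENSMUSG00000034218), the kinase above it, by 1.59 log2 units (SE 0.21, adjusted p = 2.72e-05). Atm had 261, 223, 179, 131 and 221 in normal lung and 394, 587 and 828 in tumors. Mdc1 (ENSMUSG00000061607), which binds the phosphorylated histone at breaks, went from 789 ± 181 to 2103 ± 457 (log2 fold change 1.42, SE 0.19, adjusted p = 2.74e-05).

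Of the 3 subunits of the MRN complex, which senses breaks and activates ATM, 1 was called higher, 1 lower and 1 not. These counts are near the shares over all tested genes (31.4% higher, 30.1% lower). Mre11a (ENSMUSG00000031928), the nuclease, had 322, 323, 304, 265 and 353 in normal lung and 466, 701 and 785 in tumors, with no overlap (log2 fold change 1.06, SE 0.16, limma adjusted p = 7.22e-05). Rad50 (ENSMUSG00000020380), the ATPase that bridges broken ends, had 785, 852, 679.9, 862 and 854 in normal lung and 668, 442, 509, 519, 641, 598 and 676 in tumors 1 to 7. Every tumor was below every normal lung, although tumor 7 (676) and normal lung 3 (679.9) nearly met. The means were 807 ± 77.2 (SD, n = 5) and 579 ± 90.1 (n = 7), and the fall passed the test (log2 fold change -0.49, SE 0.15, limma adjusted p = 0.0107). Rad50 no longer passed when samples were scaled to equal totals (log2 fold change -0.28, adjusted p = 0.118) or when Y-linked expression was a covariate (log2 fold change -0.32, adjusted p = 0.18). Nbn (ENSMUSG00000028224), the subunit that recruits ATM, had 217, 269, 260.0, 267 and 248 in normal lung and 209.6, 256 and 332 in tumors, and did not pass (log2 fold change 0.05, SE 0.16, adjusted p = 0.8).

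The remaining 4 members act in end joining, mismatch recognition and single-strand break signalling, and 3 of them were higher. Polq (ENSMUSG00000034206), the polymerase of an end joining route that uses short matching sequences, had the largest change of all members: 29.7, 25.8, 46.8, 18.3 and 29.9 in normal lung against 639, 1237 and 1664 in tumors. The lowest tumor, tumor 7, lay far above the highest normal lung, normal lung 3. The means were 30.1 ± 10.5 and 1224 ± 351, apart by 5.30 log2 units (SE 0.27, limma adjusted p = 3.9e-09) or 39.4-fold. Msh6 (ENSMUSG00000005370), which recognises mismatched bases, had 466, 429, 517, 361 and 419.6 in normal lung and 1206, 1767 and 2137 in tumors (log2 fold change 1.96, SE 0.17, adjusted p = 3.48e-07). Parp1 (ENSMUSG00000026496), the main poly(ADP-ribose) polymerase, was among the least variable members and still separated: 763, 730.0, 898, 674 and 668 against 1175, 1384 and 1647 (log2 fold change 0.91, SE 0.13, adjusted p = 3.5e-05). Parp2 (ENSMUSG00000036023), its relative, had 397, 316, 307, 251 and 323 against 335, 389 and 764, with tumor 2 far above the other tumors (log2 fold change 0.45, SE 0.21, adjusted p = 0.077).

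Because physical partners differed in their change, the ratio of their levels per kilobase of exon was taken in each sample for 11 pairs. The pairs were chosen with the values known, so the ratios are a description with no test. The size of a ratio also depends on the annotated exon lengths, which are the same for both groups. The change of each single gene enters its ratio, so the ratios partly restate the changes above. The share of separated ratios over other pairs of genes was not taken. In 2 pairs the groups did not overlap. The Mre11a to Rad50 ratio had a median of 0.37 in normal lung (0.28 to 0.40) and 1.11 in tumors (0.63 to 1.25). Rad51c to Rad51b had a median of 0.07 in normal lung (0.03 to 0.10) and 1.16 in tumors (0.26 to 2.22), with the lowest tumor ratio in tumor 7. The other 9 pairs overlapped, among them Brca1 to Bard1 (median 0.51 and 1.37), Brca2 to Palb2 (0.97 and 1.83), Fancd2 to Fanci (1.96 and 1.04), Atr to Atrip (0.12 and 0.14) and Fancb to Fancl (0.99 and 0.98).

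**Figure D3:**
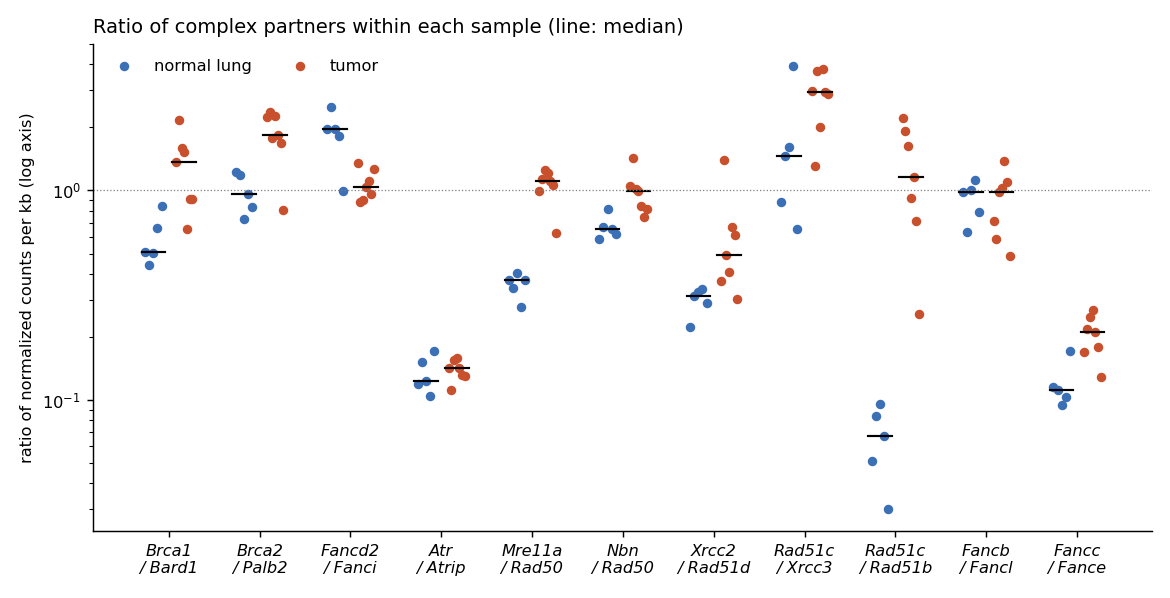
Ratio of normalized counts per kilobase of exon for 11 pairs of partner genes in each normal lung and tumor, on a log axis; lines are group medians. Only Mre11a to Rad50 and Rad51c to Rad51b show groups that do not overlap.

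Levels of different genes were compared per kilobase of exon, using exon lengths of GENCODE M21. Each length joins the exons of all annotated transcripts of a gene, whether or not they are used in these samples. It was longest for Atr, at 23629 bases, and a longer annotated length gives a lower level per kilobase. The order of the members therefore depends on the annotation, and its part in the order was not tested. In tumors the mean level ran from 12.3 for Atr to 399 for Msh6, followed by Mdc1 (283), Parp1 (266), Slx4 (235) and Chek2 (227). In normal lung the highest members were Fance (199), Rad51b (163) and Rad50 (150.1), none of which was called higher in tumors. Brca1 went from rank 35 of 42 in normal lung to rank 9 in tumors, Rad51ap1 from 33 to 8 and Polq from 40 to 15, while Rad50 went from 3 to 21. The 19 members with a normal lung level under 12 per kilobase were all called higher, with a median log2 fold change of 3.65. Of the 23 above that level, 15 were called higher, 1 lower and 7 not, with a median of 0.89. The limit of 12 was set after seeing the values, and the normal lung level enters both sides of this comparison. Over all tested genes 31.4% were called higher, and the share among genes of a like level was not taken.

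**Figure D4:**
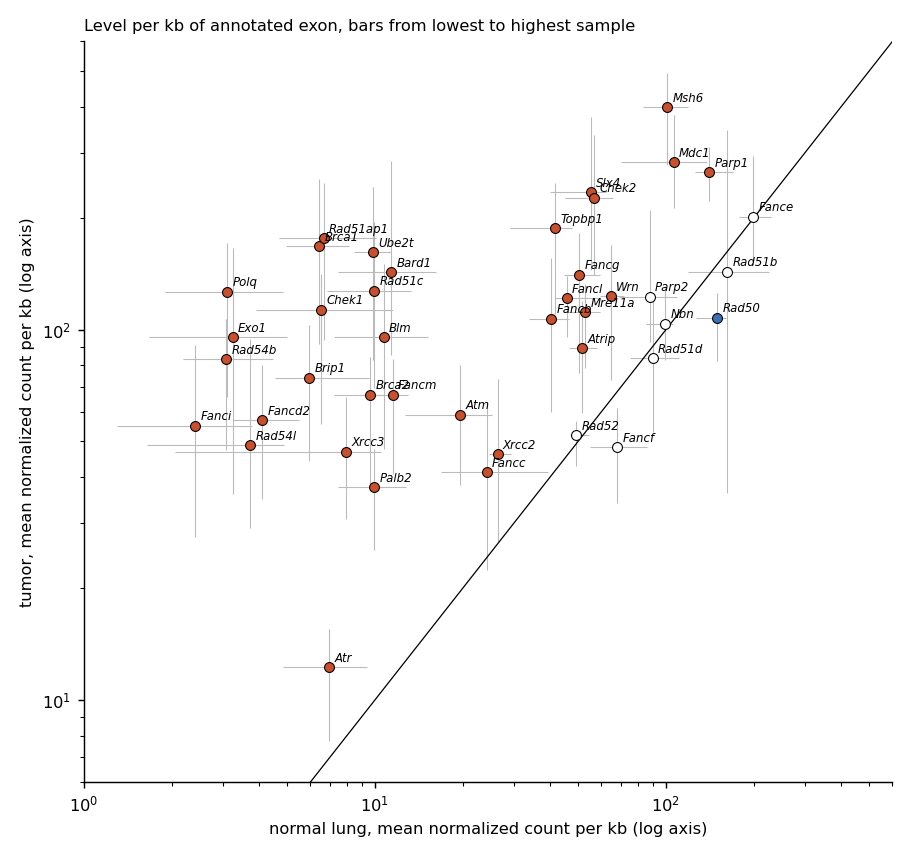
Mean normalized count per kilobase of exon in normal lung (x axis) and tumor (y axis) for the 42 members, both on log axes, with bars from the lowest to the highest sample and a diagonal of equal level; red points were called higher, the blue point (Rad50) lower and white points neither. Polq, Exo1, Rad54b and Fanci, at under 4 per kilobase in normal lung, lie far above the diagonal, while Atr at 6.94 lies close to it.

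Tumor 7 was the lowest of the tumors in 26 of the 34 members called higher. The median over the 42 members was 8.70 on the log2 scale in tumor 7 and 9.15 to 9.35 in the other 6 tumors. In the same library the summed proliferation markers were lowest (29295, others 42914 to 64854) and the neuroendocrine markers were lowest (42207, others 58209 to 152508). Its cardiac muscle markers summed to 26703 (others 129.8 to 1706), its smooth muscle and fibroblast markers to 35275 (others 3712 to 21711) and its leukocyte markers to 14662 (others 389.6 to 4108). Between groups, none of the 5 cardiac markers was called and 4 of 9 smooth muscle and fibroblast markers were lower in tumors. Without tumor 7 the counts were the same, with 34 members higher and 1 lower. Among normal lungs, normal lung 3 was highest in 16 of those 34 members and had a Mki67 count of 1055 (others 310.3 to 538), while normal lung 4 was lowest in 23. Over the 42 members normal lung 3 had the highest mean of the normal lungs on the log2 scale (7.18, others 6.72 to 7.09), but not the highest median (7.12, others 7.08 to 7.36). The part of these differences in the members' values was not tested.

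**Figure D5:**
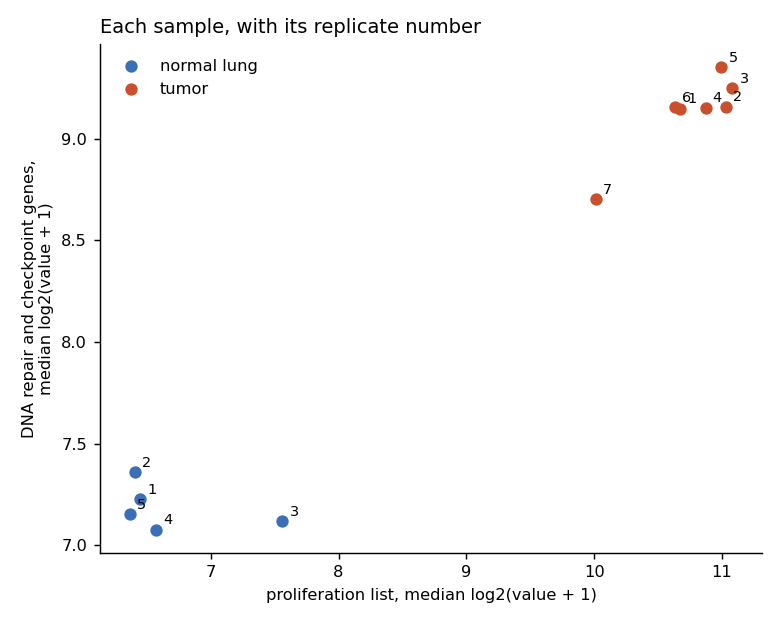
Median of log2(normalized count + 1) over the 42 members (y axis) against the median over the 16 proliferation markers (x axis); each point is 1 sample with its replicate number, blue for normal lung and red for tumor. Tumor 7 is the lowest tumor in both (8.70 and 10.01), and normal lung 3 is the highest normal lung for the proliferation markers (7.56).

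Spread among tumors lay under the median of all tested genes for most members and is described with no test. The SD over the 7 tumors on the log2 scale had a median of 0.40 for the members and 0.63 for all tested genes, and 40 of 42 members lay under the median of all genes. Only Rad51b (1.05) and Exo1 (0.73) lay above it. Over the normal lungs the medians were 0.28 and 0.35. The genes were not matched by level. All tested genes reach down to a mean of 1, while the lowest tumor mean of a member was 81.4 (Fancf). The part of level in the spread was not tested.

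Other genes of the same and neighbouring pathways were read from the same fit; values below are log2 fold changes of tested genes, and the shares over all tested genes were 31.4% higher and 30.1% lower. Of 37 other homologous recombination and Fanconi genes, 24 were higher and 1 was lower (median log2 fold change 1.08), and the gene called lower was the nuclease subunit Ercc4 at -0.53. Of 22 other genes of checkpoint and damage signalling, 17 were higher and 1 lower (median 1.43), from the phosphatase Cdc25c at 6.30 to the kinase Tlk1 at -0.84. This list includes the Cdc25 phosphatases and shares a gene with the proliferation markers. Of 7 mismatch repair genes, 6 were higher, led by the ligase Lig1 at 4.31, and Mlh3 was lower at -0.79. In translesion synthesis 7 of 11 were higher (median 0.83), with Rad18 at 2.66 and Polk lower at -0.59.

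The 3 lists of end joining and excision repair had the lowest medians, and end joining and nucleotide excision repair had shares of called genes under those over all tested genes in both directions. In non-homologous end joining 3 of 12 genes were higher and 2 lower (median 0.15), with Dntt at 1.67 and with Aplf (-0.95) and Poll (-0.62) lower. In nucleotide excision repair 4 of 19 were higher and 2 lower (median 0.26), with Uvssa at 1.27 and with Cetn2 (-1.14) and Xpc (-0.80) lower. In base excision and single-strand break repair 9 of 19 were higher and 3 lower (median 0.50), with the glycosylase Neil3 at 5.50 and with Parp3 (-3.12), Nthl1 (-1.35) and Aptx (-0.76) lower. Whether these lists differ from each other or from the members was not tested.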

How the data were processed

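Poly-A selected RNA was sequenced as paired ends on an Illumina NovaSeq, per the labels' protocols. The authors deposited a signal: normalized read counts per gene. They are whole multiples of 1 read's worth in each sample (tolerance 0.1), so whole reads could be recovered. Per the submitters' processing notes, GRCm39, featureCounts and DESeq2 were used, with no version or role; the aligner, annotation and use of strand are not given in the sources used here. Gene symbols came from GENCODE M21, which named 29982 of 30399 identifiers.

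Samples were grouped by the tissue label. Replicate numbers follow the order of listing. All 31 same-group pairs differed by more than sampling noise (lowest chi-square over its degrees of freedom 18.4). Genes with a mean of 1 or more (23674) were fitted as log2(value + 1) with limma 3.58.1 in R 4.3.3 (lmFit, eBayes with trend) and Benjamini-Hochberg adjustment. This scale understates the change of low genes. Alternatives used edgeR 4.0.16 and DESeq2 1.42.0 on whole reads, other scalings, filters and pseudocounts, a Y-linked covariate, tumors sharing a title number averaged or correlated, and samples left out; leaving out the tumors numbered 201 was chosen after seeing the data. Figures used Python 3.11.15 and matplotlib 3.10.9.

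All members found are named; of each other pathway list, the genes with the largest and smallest change and every gene called lower are named, except 1 that is not reported here. The members and lists were chosen by function, with earlier results of these data known. On simulated counts for 23674 genes, of which 200 were changed, limma recovered 32 of 100 genes changed by 1 log2 unit and 88 of 100 changed by 2, and 8 of 128 calls were false. The simulation gave every gene the same dispersion and changed a far smaller share of genes than the 61.5% called in the data. Its rates of recovery and of false calls therefore do not carry over to the data.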

Additional observations from a re-analysis of the deposited data

Results flagged for a closer look

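Among 84 comparisons of a member within a group, 10 had a single sample far from the others by Dixon's ratio. Chance alone gives about 4.2 on average (1 in 20 groups) if log2 values are normally distributed. The same 12 libraries recur across the members, so the comparisons are not independent, and an excess over 4.2 was not tested. In tumor 7, Brca2 was 503 (others 821 to 1153) and Chek1 was 257 (460.3 to 654). In tumor 2, Fancg was 289 (508 to 692) and Parp2 was 764 (335 to 451). In normal lung 4, Xrcc3 was 5.64 (22.6 to 28.7), Slx4 was 306 (425 to 478) and Topbp1 was 326 (481 to 533). In normal lung 3, Rad52 was 313 (269 to 281) and Brip1 was 71.1 (33.9 to 39.8), and in normal lung 2, Fancl was 197 (139.7 to 145). Tumor 7 and normal lung 4 are also the libraries that were most often lowest in their groups. All values are normalized counts.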

How the results depend on the processing

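The number of members called higher was 34 in the main fit and ran from 32 with a Y-linked covariate to 35 with equal totals under the 24 alternatives. The calls over all tested genes moved too. They numbered 14554 in the main fit (51.1% of them higher), 11632 with the Y-linked covariate (50.5% higher) and 14723 with equal totals (58.4% higher). Of 1008 values of single members, 975 kept direction and call, 10 lost the call, 3 gained it and 20 changed sign, and 33 members kept both under all 24. The number of members called lower was 2 with DESeq2 and without the tumors numbered 201, and 0 with the Y-linked covariate and with equal totals. DESeq2 added Fancf. Leaving out the 201 tumors, which hold the highest tumor values of Rad51b, added Rad51b. That run was chosen after the values were seen, so its added call is a description and not a test of a fall. Equal totals moved the median of all genes from 0.04 to 0.23 and brought Parp2 to 0.65 (adjusted p = 0.0174).

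Sign changes concerned members near 0. The log2 fold change of Fance was 0.0174 with DESeq2, 0.11 with the Y-linked covariate, 0.0116 with edgeR, 0.20 with equal totals, 0.11 with same-numbered tumors averaged, 0.0473 with the title number as a random effect, 0.16 without the 201 tumors and 0.0103 without the trachea-titled tumors, and it ran from -0.0957 to 0.0650 when samples were left out in turn. Rad51d was 0.16 with the Y-linked covariate and 0.0743 with equal totals. Nbn was -0.0175 without the trachea-titled tumors and ran from -0.00764 to 0.10 when samples were left out. Fancc lost its call in 6 of the runs that left out a sample (lowest 0.64), and with the Y-linked covariate Fancc (0.94, adjusted p = 0.0572) and Xrcc2 (0.73, adjusted p = 0.0885) lost theirs, with a log2 fold change that was larger for Fancc and nearly equal for Xrcc2. The cause was not tested. No paired analysis was possible because replicate numbers were given by accession order and tie no normal lung to a tumor.

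Depth limits members such as Fanci and Xrcc3, whose normal lung values rest on few reads. The labels do not say whether tumors with the same title number share an animal.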
